A study of Mus musculus with 12 samples.

Results

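The guanylate-binding proteins (GBPs) and the immunity-related GTPases (IRGs) are 2 families of interferon-inducible GTPases, and 9 of their genes were followed here: Gbp2, Gbp3, Gbp5, Gbp7, Gbp9, Irgm1, Irgm2, Igtp and Iigp1. A gene was measured where the annotation of the array gave a probe set its symbol and no other, and of several such probe sets the brightest on average stood for the gene. By this rule 6 of the 9 genes were measured, Gbp3, Gbp5, Gbp7, Gbp9, Irgm1 and Iigp1, of 19938 genes in all. Gbp2 lies on a probe set shared with Gbp2b, and Irgm2 and Igtp lie together on another, so for these 3 genes the value of the shared probe set is given, which cannot be assigned to either symbol.

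RNA came from bone marrow of C57B/6 mice grown for 6 days with 20 ng/ml GM-CSF, a cytokine that drives myeloid growth. The groups were dendritic cells given LPS (GM-DC LPS), unstimulated dendritic cells (GM-DC unstimulated), macrophages given LPS (GM-MF LPS) and unstimulated macrophages (GM-MF unstimulated), with 3 arrays each and 12 in all. LPS, the bacterial endotoxin sensed by Toll-like receptor 4, was given at 10 ng/ml for 4 hours, and every group carried the GM-CSF culture. The labels name no genotype, age, sort or gate for the cells, nor whether the replicates came from separate mice or cultures, so every p-value reflects array-to-array spread alone, and that spread may be technical.

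Type I interferon, made after LPS, signals through the receptor chains Ifnar1 and Ifnar2 to transcription factors that bind the interferon-stimulated response element (ISRE). Interferon gamma signals through Ifngr1 and Ifngr2 and acts on its target genes through the gamma-activated site (GAS). The proteins made in response defend the cell interior. GBPs are large GTPases that coat bacteria and the vacuoles of parasites and help bacterial LPS to reach caspase-11. IRGs fall into effectors such as Iigp1, which load onto parasite vacuoles and disrupt them, and regulators such as Irgm1, Irgm2 and Igtp, which sit on the cell's own membranes and hold the effectors inactive there.

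Promoter windows are shown first because the ISRE and GAS are the sites through which interferon acts on its target genes. Windows of 250 bases before to 50 bases after the gene start, from RefSeq on build GRCm38.p6, were matched for 7 of the 9 genes, Gbp9 and Iigp1 not being among them. The search excluded a whole chromosome for genes of these families, so the counts of family genes cover only the windows kept. The shares over all windows include that chromosome. Both strands were searched for an ISRE core, GAAA then any 2 bases then GAAA, and a GAS core, TTC then any 3 bases then GAA, where overlapping matches of a motif count separately. The windows of Gbp3, Gbp5, Gbp7 and Irgm1, the genes with a probe set and a window of their own, are printed 5′ to 3′ on the gene's strand with the matches in capitals. The Gbp3 window is the first of its 2 in the table, at chr3:142559794-142560093 on the plus strand. Those of Gbp5 at chr3:142496684-142496983 and Gbp7 at chr3:142530086-142530385 are also on the plus strand, and that of Irgm1 at chr11:48871371-48871670 is on the minus strand.
Gbp3: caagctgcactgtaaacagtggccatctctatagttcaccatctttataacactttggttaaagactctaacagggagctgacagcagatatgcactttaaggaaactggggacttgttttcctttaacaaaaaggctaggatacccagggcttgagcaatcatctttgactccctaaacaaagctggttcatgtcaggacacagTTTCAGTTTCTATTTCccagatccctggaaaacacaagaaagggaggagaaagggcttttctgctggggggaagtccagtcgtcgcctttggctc
Gbp5: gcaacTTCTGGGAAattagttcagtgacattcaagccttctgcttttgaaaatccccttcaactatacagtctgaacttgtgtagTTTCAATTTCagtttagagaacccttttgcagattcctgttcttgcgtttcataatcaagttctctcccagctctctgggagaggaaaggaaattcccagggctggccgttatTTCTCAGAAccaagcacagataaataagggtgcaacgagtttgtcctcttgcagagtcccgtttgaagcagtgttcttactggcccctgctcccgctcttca
Gbp7: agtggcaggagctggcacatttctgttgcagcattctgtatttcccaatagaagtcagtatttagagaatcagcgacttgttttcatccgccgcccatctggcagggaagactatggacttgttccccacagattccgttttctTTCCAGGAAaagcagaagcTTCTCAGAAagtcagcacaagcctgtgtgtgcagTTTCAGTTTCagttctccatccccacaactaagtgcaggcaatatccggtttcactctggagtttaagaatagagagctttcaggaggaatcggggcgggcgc
Irgm1: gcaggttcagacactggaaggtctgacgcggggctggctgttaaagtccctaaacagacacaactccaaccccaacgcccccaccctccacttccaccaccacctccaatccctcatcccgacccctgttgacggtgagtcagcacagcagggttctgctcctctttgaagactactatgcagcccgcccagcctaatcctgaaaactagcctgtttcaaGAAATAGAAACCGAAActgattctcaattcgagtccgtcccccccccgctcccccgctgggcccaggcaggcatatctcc

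An ISRE core was found in a window of 7 of these 7 genes, against 3.44% of all 32851 windows in the table. In Gbp3, Gbp5, Gbp7 and Gbp2 it read on the strand opposite to the gene, and in Irgm1, Igtp and Irgm2 on the gene's own strand. Gbp3 and Irgm1 each held a pair of overlapping ISRE cores, beginning 45 and 39 bases before the start in Gbp3 and 30 and 24 bases before it in Irgm1. Single matches began 53 bases before the start in Gbp7, 59 in Gbp2, 34 in Igtp and 64 in Irgm2, and the farthest, in Gbp5, began 165 bases before it. The second Gbp3 window held no match of either motif.

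A GAS core was found in 4 of the 7 genes, 2 each in Gbp5 and Gbp7 and 1 each in Igtp and Irgm2, against 8.3% of all windows, and 4 of 7 held both motifs, against 0.454%. Gbp3, Gbp2 and Irgm1 held no GAS core in these windows. Of the 7 genes, Gbp5 alone matched the NF-kB consensus, 77 bases before its start, a motif found in 4.51% of all windows. Short stretches are given for the genes measured on shared probe sets, because Igtp and Irgm2 carry nearly the same arrangement. The stretch of Gbp2 is at chr3:142620596-142620621, that of Igtp at chr11:58199503-58199539 and that of Irgm2 at chr11:58214894-58214930, all on the plus strand.
Gbp2: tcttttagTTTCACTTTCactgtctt
Igtp: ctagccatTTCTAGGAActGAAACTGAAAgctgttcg
Irgm2: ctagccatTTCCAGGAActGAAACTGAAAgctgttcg
The Igtp and Irgm2 stretches were identical at 36 of 37 bases, with the substitution T12C from Igtp to Irgm2, counted from 1 at the 5′ end, inside the GAS core. In both, 2 bases part the GAS core from the ISRE core, and the same spacing was found in the windows of 3 other IRG genes, Gm12185, Tgtp1 and Tgtp2. A match describes the letters of a window and shows no binding.

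**Figure D1:**
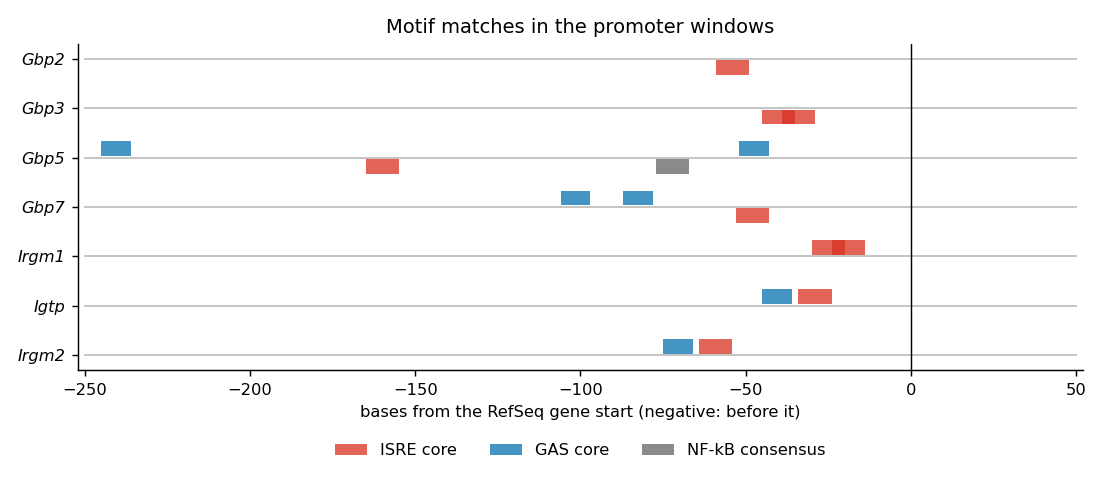
Positions of ISRE core, GAS core and NF-kB consensus matches in the promoter windows of 7 genes, by distance in bases from the RefSeq gene start, which is the vertical line at 0. Bars above a grey line read on the gene's strand and bars below it on the other strand. A GAS core match reads on both strands and is drawn above the line. The ISRE cores of the 4 Gbp genes lie below their lines and those of Irgm1, Igtp and Irgm2 above.

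Array values were used as the authors deposited them, on a log2 scale made with RMA, in which 1 unit is 2-fold. Arrays of 1 group correlated at 0.993 to 0.996 across genes. Array medians lay between 4.41 and 4.54, and a value under them was not shown to lie above background. Levels of different genes are not compared, since each probe set has its own scale. The cell type labels were checked against markers. All 6 macrophage markers were lower in GM-DC than in GM-MF with and without LPS, and of 6 dendritic cell markers Flt3, Zbtb46, Ccr7 and Dpp4 were higher, Itgax was lower and H2-Ab1 did not pass. The mean level of the 6 macrophage markers ran from 5.78 to 6.15 over the GM-DC LPS arrays, 5.89 to 6.00 over unstimulated GM-DC, 9.95 to 10.10 over GM-MF LPS and 9.88 to 10.08 over unstimulated GM-MF. Of 7 T and NK cell markers 6 had means under the array medians in every group, Ncr1, Klrb1c, Gzma and Ifng among them, as did 3 of 3 B cell markers measured. Neutrophil markers averaged 5.91 to 6.15 over GM-DC LPS arrays, 5.92 to 6.13 over unstimulated GM-DC, 6.36 to 6.47 over GM-MF LPS and 6.19 to 6.30 over unstimulated GM-MF. Plasmacytoid DC markers averaged 5.77 to 5.97, 5.73 to 5.79, 6.31 to 6.37 and 5.99 to 6.04 in the same order, with Siglech under the array medians in every group. The part of these cells in the results was not tested, and in bulk RNA fewer cells of a type and less RNA per cell cannot be told apart.

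Among the 6 measured genes the LPS response of the dendritic cells was largest for Irgm1, whose signal was 23.3-fold higher with LPS, while the GBPs rose 1.82- to 4.55-fold and Iigp1 stayed under the array medians. Of the 6 measured genes 5 were called higher in GM-DC LPS than in unstimulated GM-DC, where 5.23% of all 19938 genes were called higher. A gene is called at an adjusted p under 0.05 in limma's moderated test, with Benjamini-Hochberg adjustment over all genes. The median difference of the 6 genes was 1.44 on the log2 scale, against -0.01 over all genes. For each of the 6 genes the lowest GM-DC LPS value lay above the highest unstimulated one, as for 11.1% of all genes.

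Among the GBPs, Gbp5, which promotes inflammasome assembly in mouse macrophages, measured 9.35, 9.65 and 9.24 in GM-DC LPS and 7.54, 7.37 and 7.38 in unstimulated GM-DC. The LPS arrays were all higher, by 1.98 ± 0.12 on the log2 scale (SE of the limma fit, n = 3 each), adjusted p = 3.67e-08. Gbp7 measured 6.04, 6.76 and 5.53 in GM-DC LPS and 3.38, 4.51 and 3.88 in unstimulated GM-DC. Its unstimulated values were each under the median of their array, and both groups were wide, with an SD of 0.62 with LPS and 0.57 without. The Gbp7 difference was 2.19 ± 0.27, adjusted p = 8.36e-05. Gbp3 measured 7.28, 7.54 and 7.23 in GM-DC LPS and 6.44, 6.53 and 6.35 in unstimulated GM-DC, a tight shift of 0.90 ± 0.11, adjusted p = 5.52e-05. Gbp9 measured 8.05, 8.04 and 7.50 in GM-DC LPS and 7.22, 7.25 and 6.52 in unstimulated GM-DC. Replicate 3 was low in both groups of Gbp9, and the lowest LPS array stood only slightly above the highest unstimulated one. The Gbp9 difference was 0.87 ± 0.19, adjusted p = 0.00673. The probe set shared by Gbp2 and Gbp2b measured 9.32, 9.61 and 9.40 in GM-DC LPS and 8.53, 8.42 and 8.63 in unstimulated GM-DC, higher by 0.92, adjusted p = 0.000273 in a limma fit of all 35556 probe sets, which gave every shared probe set its value.

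Of the regulatory IRGs, Irgm1, which is needed in mice for defence against intracellular bacteria, measured 9.42, 9.95 and 9.33 in GM-DC LPS and 5.17, 5.55 and 4.37 in unstimulated GM-DC. The groups lay far apart, and the third unstimulated array was low and under its median. The difference was 4.54 ± 0.23, adjusted p = 8.8e-09, which was the third highest of 19938 genes in GM-DC. The probe set shared by Irgm2 and Igtp measured 9.50, 9.81 and 9.45 in GM-DC LPS and 5.54, 5.93 and 5.64 in unstimulated GM-DC, higher by 3.89, adjusted p = 5.2e-08 in the fit of all probe sets. The effector Iigp1 measured 3.70, 4.15 and 3.88 in GM-DC LPS and 3.59, 3.16 and 3.69 in unstimulated GM-DC. All 6 of these Iigp1 values were under the medians of their arrays and the groups nearly touched. The difference of 0.43 ± 0.15 did not pass, adjusted p = 0.0926, and after cyclic loess normalisation it was 0.47 with an adjusted p of 0.0492.

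**Figure D2:**
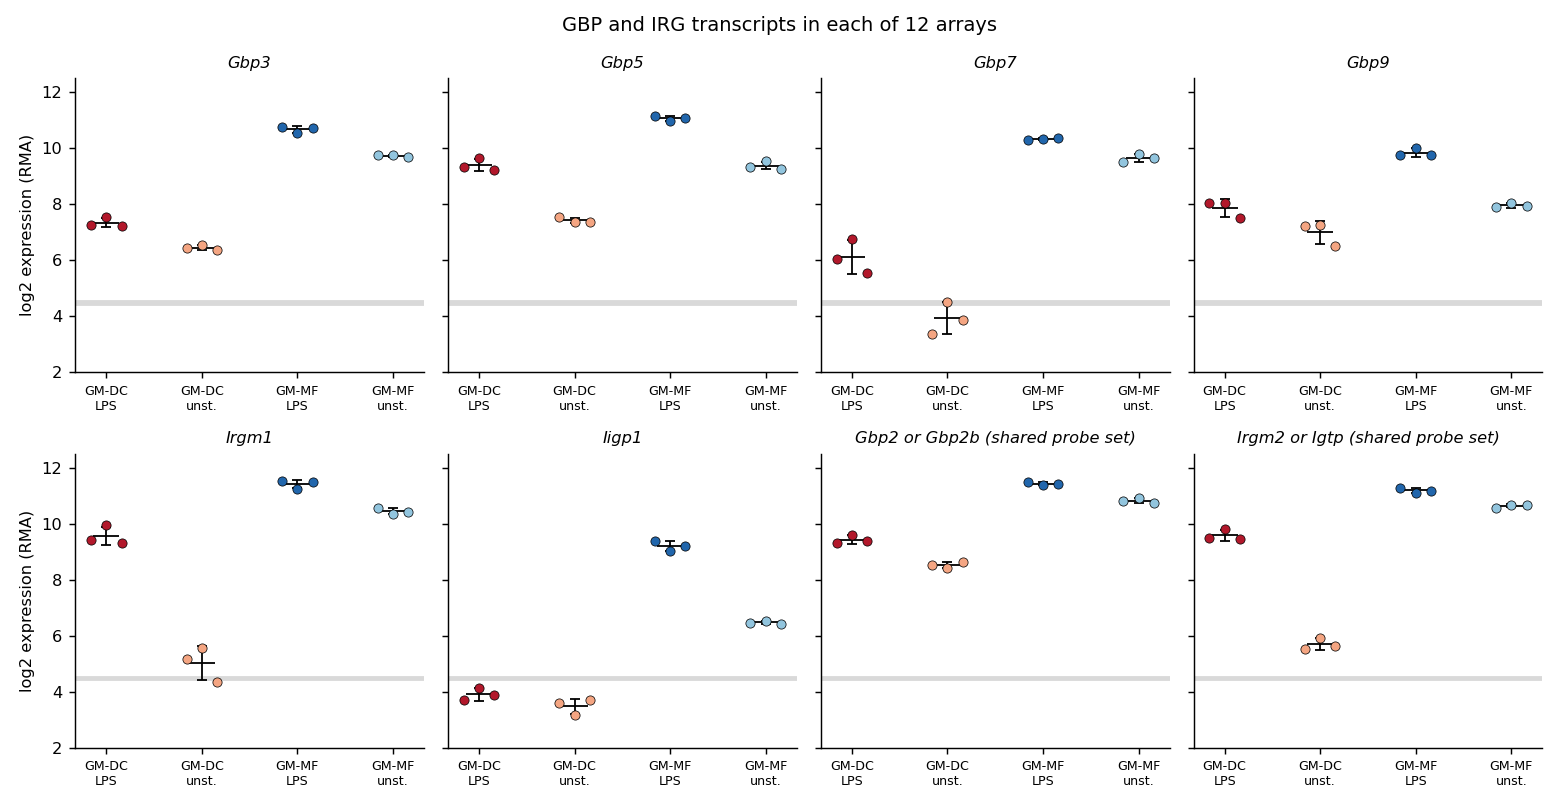
Log2 expression of 6 genes and 2 shared probe sets in each of 12 arrays, by group, with GM-DC LPS, GM-DC unstimulated, GM-MF LPS and GM-MF unstimulated from left to right. Points are arrays, the horizontal tick and bar are the mean and SD of 3 arrays, and the grey band spans the array medians of 4.41 to 4.54. Irgm1 in unstimulated GM-DC averaged 5.03 and in the other groups 9.57 to 11.44, and Iigp1 lies under the band in both GM-DC groups.

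In the macrophages the order of the responses was another one, with Iigp1 first at 6.63-fold, Gbp9 and Gbp5 next at 3.68- and 3.21-fold, and Irgm1 at 1.97-fold. Of the 6 genes 5 were called higher in GM-MF LPS than in unstimulated GM-MF, where 6.54% of all genes were called higher and 10.8% lower, or 8.66% and 7.86% after cyclic loess. The median difference was 1.33, against -0.02 over all genes. All 6 genes separated the groups upward, as 12.3% of all genes did.

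Iigp1 measured 9.39, 9.04 and 9.21 in GM-MF LPS and 6.47, 6.55 and 6.44 in unstimulated GM-MF. Both groups were tight and wide apart, with a difference of 2.73 ± 0.15, adjusted p = 1.43e-08. Irgm1 measured 11.54, 11.27 and 11.50 in GM-MF LPS and 10.58, 10.37 and 10.43 in unstimulated GM-MF, high in all 6 arrays, with a difference of 0.98 ± 0.23, adjusted p = 0.00805. The probe set shared by Irgm2 and Igtp measured 11.29, 11.11 and 11.20 in GM-MF LPS and 10.59, 10.69 and 10.67 in unstimulated GM-MF, higher by 0.55, adjusted p = 0.0147 in the fit of all probe sets.

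Gbp9 measured 9.75, 10.02 and 9.76 in GM-MF LPS and 7.89, 8.05 and 7.95 in unstimulated GM-MF, a clear separation of 1.88 ± 0.19, adjusted p = 5.21e-06. Gbp5 measured 11.15, 10.97 and 11.08 in GM-MF LPS and 9.34, 9.53 and 9.28 in unstimulated GM-MF, higher by 1.68 ± 0.12, adjusted p = 2e-07. Gbp3 measured 10.78, 10.54 and 10.72 in GM-MF LPS and 9.76, 9.76 and 9.69 in unstimulated GM-MF, higher by 0.95 ± 0.11, adjusted p = 1.97e-05. In each of these 3 genes the lowest LPS array stood above the highest unstimulated one. Gbp7 measured 10.30, 10.32 and 10.37 in GM-MF LPS and 9.50, 9.78 and 9.64 in unstimulated GM-MF, so that all LPS arrays were higher. Its difference of 0.69 ± 0.27 did not pass with the spread shared over all 4 groups, adjusted p = 0.107, and the SDs of 0.04 and 0.14 in GM-MF were well under those in GM-DC. With the replicate block the adjusted p was 0.0446, with the replicate block within cell type 0.0128, with only the 2 groups compared 0.0016, and without GM-DC LPS replicate 2 it was 0.0464. The probe set shared by Gbp2 and Gbp2b measured 11.49, 11.39 and 11.45 in GM-MF LPS and 10.82, 10.94 and 10.75 in unstimulated GM-MF, higher by 0.61, adjusted p = 0.00228 in the fit of all probe sets.

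Every one of the 6 genes was lower in dendritic cells than in macrophages, both before and after LPS. Before LPS 6 of 6 were called lower in GM-DC, where 16.2% of all genes were, and the median difference was -3.15, against -0.01 over all genes. With LPS 6 of 6 were called lower in GM-DC, where 15.4% of all genes were, and the median difference was -2.66, against 0.00 over all genes. For each of the 6 genes every GM-DC value lay under every GM-MF value, as for 21.4% of all genes before LPS and 19.9% with it. Macrophage markers moved with these differences, as given above, and their part was not tested.

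Without LPS the widest gap was that of Gbp7, with 3.92 ± 0.57 in unstimulated GM-DC and 9.64 ± 0.14 in unstimulated GM-MF (SD, n = 3 each). That difference of -5.72 ± 0.27, adjusted p = 2.2e-10, was the 21st lowest of 19938 genes, and its lower side was not shown to be above background. Irgm1 averaged 5.03 ± 0.61 in unstimulated GM-DC and 10.46 ± 0.11 in unstimulated GM-MF, a difference of -5.43 ± 0.23, adjusted p = 7.33e-11. Gbp3 followed with -3.29 ± 0.11, Iigp1 with -3.01 ± 0.15 and Gbp5 with -1.96 ± 0.12. Gbp9 had the smallest gap, at 6.99 ± 0.41 in unstimulated GM-DC and 7.96 ± 0.08 in unstimulated GM-MF, or -0.97 ± 0.19, adjusted p = 0.000632. The shared probe sets were also lower in unstimulated GM-DC, by -2.31 for Gbp2 with Gbp2b and by -4.94 for Irgm2 with Igtp.

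With LPS the gap of Iigp1 was the widest, at 3.91 ± 0.23 in GM-DC LPS and 9.22 ± 0.17 in GM-MF LPS. The difference was -5.31 ± 0.15, adjusted p = 1.4e-12, with the GM-DC side under the array medians. Gbp7 differed by -4.22 ± 0.27 and Gbp3 by -3.33 ± 0.11. The smaller gaps were those of Gbp9 at -1.98 ± 0.19, Irgm1 at -1.87 ± 0.23 and Gbp5 at -1.66 ± 0.12. The gap of Irgm1 was thus smaller with LPS than without, and those of Iigp1 and Gbp9 larger, which is the same quantity as the difference of the LPS responses tested next.

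**Figure D3:**
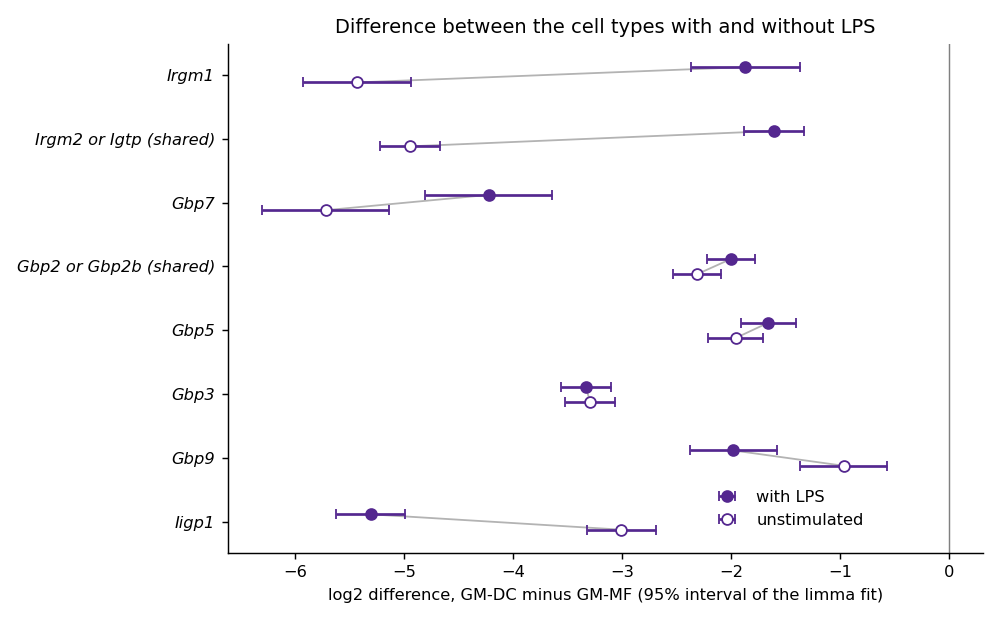
Log2 difference of GM-DC minus GM-MF for 6 genes and 2 shared probe sets, with LPS as filled points and unstimulated as open points, with the 95% interval of the limma fit. Every point lies left of 0. The gap of Irgm1 is -1.87 with LPS and -5.43 unstimulated, and that of Iigp1 is -5.31 with LPS and -3.01 unstimulated.

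Whether LPS acted differently in the 2 cell types was tested as the GM-DC response minus the GM-MF response. Irgm1 and Gbp7 had a larger response in GM-DC, Iigp1 and Gbp9 a larger one in GM-MF, and Gbp3 and Gbp5 did not pass. That makes 2 of 6 genes called higher and 2 of 6 called lower, where 4.53% of all genes were called higher and 3.06% lower. The median of the 6 was 0.13, against 0.02 over all genes, since the differences ran both ways.

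For Irgm1 the GM-DC response was 4.54 and the GM-MF response 0.98, a difference of 3.56 ± 0.33, adjusted p = 7.89e-06, the ninth highest of all genes. For Iigp1 it was 0.43 in GM-DC and 2.73 in GM-MF, a difference of -2.30 ± 0.21, adjusted p = 6.66e-06, the 35th lowest. These 2 calls were kept in all 23 alternative settings and left-out arrays. Irgm1 and Iigp1, both of the IRG family, were thus called in opposite directions. All GM-DC values of Iigp1 were under the array medians, so its GM-DC response compares signals not shown to lie above background.

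For Gbp7 the response was 2.19 in GM-DC and 0.69 in GM-MF, a difference of 1.50 ± 0.39, adjusted p = 0.0264. This call was lost in 10 of 23 alternatives, with adjusted p up to 0.0959. Leaving out GM-DC LPS replicate 2, GM-DC unstimulated replicate 1 or 3, any GM-MF LPS array, or GM-MF unstimulated replicate 2 or 3 ended it, with adjusted p from 0.051 to 0.0638. For Gbp9 the response was 0.87 in GM-DC and 1.88 in GM-MF, a difference of -1.01 ± 0.26, adjusted p = 0.0275. This call was lost in 7 of 23 alternatives, with adjusted p up to 0.0886. Leaving out GM-DC LPS replicate 3, GM-DC unstimulated replicate 1 or 2, GM-MF LPS replicate 2, or GM-MF unstimulated replicate 1 or 3 ended it, with adjusted p from 0.0546 to 0.075.

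Gbp5, with a difference of 0.30 (95% interval -0.06 to 0.66, adjusted p = 0.393), and Gbp3, with -0.04 (-0.37 to 0.28, adjusted p = 0.945), did not pass. Neither interval reaches beyond 0.66 in size. In the fit of all probe sets the response of the Irgm2 and Igtp probe set was larger in GM-DC by 3.33, adjusted p = 1.26e-05. The Gbp2 and Gbp2b probe set, at 0.31, did not pass, adjusted p = 0.341. Gbp9 also lies on a probe set shared with Gbp4, Gbp6, Gbp8, Gbp10 and Gbp11, fitted in the same way. That probe set responded by 0.79 in GM-DC (adjusted p = 0.0922) and by 0.92 in GM-MF (adjusted p = 0.0271). Its difference of -0.13 did not pass, adjusted p = 0.933, so the larger GM-MF response of Gbp9 was seen on its own probe set only. The LPS responses in the 2 cell types share no arrays, but each shares its unstimulated or LPS arrays with a comparison between cell types.

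**Figure D4:**
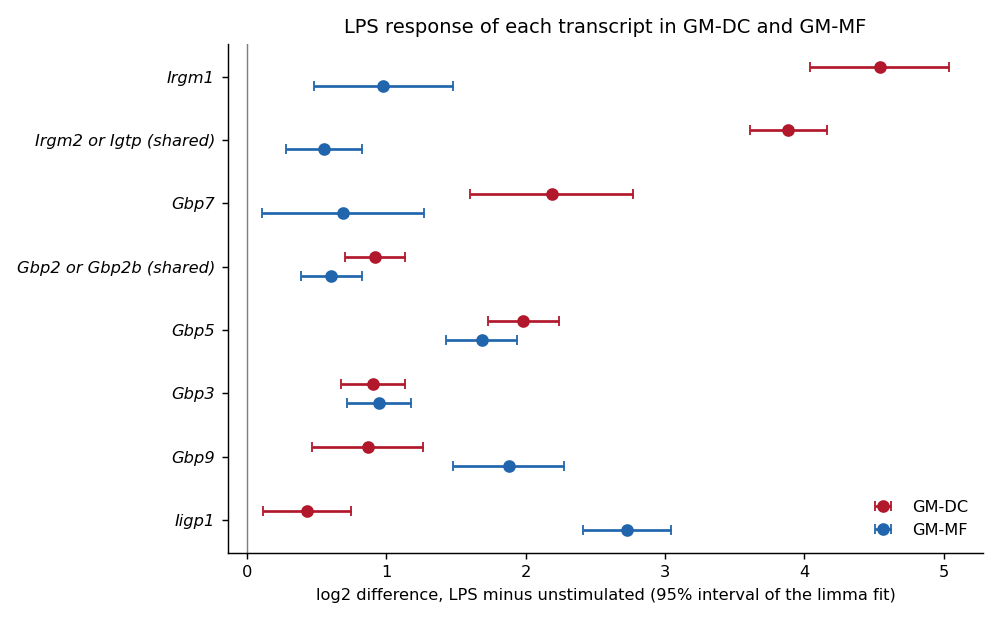
Log2 difference of LPS minus unstimulated for 6 genes and 2 shared probe sets in GM-DC and GM-MF, with the 95% interval of the limma fit, ordered by the difference between the responses. Irgm1 stands at 4.54 for GM-DC with 0.98 for GM-MF, and Iigp1 at 0.43 for GM-DC with 2.73 for GM-MF.

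The order of the 4 group means was the same for Gbp3, Gbp7, Gbp9, Irgm1 and Iigp1: GM-MF LPS was highest, then unstimulated GM-MF, GM-DC LPS and unstimulated GM-DC. Gbp5 had GM-DC LPS, at 9.41 ± 0.21, in second place before unstimulated GM-MF, at 9.38 ± 0.13. These neighbours overlapped and did not pass, with a difference of 0.03 (95% interval -0.23 to 0.28, adjusted p = 0.917). This comparison was added after the values were seen, and in it 16.4% of all genes were called lower in GM-DC LPS, as were 4 of the 6 genes. Gbp9 in GM-DC LPS, at 7.86 ± 0.32, also overlapped unstimulated GM-MF, at 7.96 ± 0.08, with a difference of -0.10 (-0.50 to 0.30, adjusted p = 0.767). For the other 4 genes GM-DC LPS stayed lower than unstimulated GM-MF, by -0.89 ± 0.23 for Irgm1 (adjusted p = 0.00702), -2.39 ± 0.11 for Gbp3, -2.58 ± 0.15 for Iigp1 and -3.53 ± 0.27 for Gbp7. The remaining neighbours that did not pass were the Gbp7 groups of GM-MF and the Iigp1 groups of GM-DC, given above.

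The other GBP genes were measured for 4 of 6 listed symbols. In GM-DC 1 of 4 was called higher with LPS, where 5.23% of all genes were, and 3 were not called, median 0.09. In GM-MF 4 of 4 were called higher, median 1.16, where 6.54% of all genes were. Gbp4 rose in both, by 1.78 ± 0.37 in GM-DC (adjusted p = 0.0057) and 2.17 ± 0.37 in GM-MF (adjusted p = 0.000707). It measured 7.31, 7.34 and 6.52 in GM-DC LPS and 5.89, 5.91 and 4.02 in unstimulated GM-DC, with replicate 3 low in both groups, as for Gbp9. Gbp11 measured 3.68, 3.09 and 3.62 in GM-DC LPS and 3.58, 3.37 and 2.88 in unstimulated GM-DC, all under the array medians, against 5.74, 5.56 and 5.64 in GM-MF LPS and 4.17, 4.29 and 3.88 in unstimulated GM-MF. The unstimulated GM-MF values were under the array medians too. It rose in GM-MF by 1.54, adjusted p = 2.97e-05. Gbp2b, on a probe set of its own, was likewise under the array medians in all GM-DC arrays and rose by 0.69 in GM-MF, adjusted p = 0.0018.

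Gbp8 went the other way between the cell types. It measured 8.14, 8.02 and 7.86 in GM-DC LPS and 7.97, 8.12 and 7.96 in unstimulated GM-DC, against 7.76, 7.77 and 7.14 in GM-MF LPS and 6.96, 6.60 and 6.79 in unstimulated GM-MF. The unstimulated GM-DC arrays were all above those of GM-MF, by 1.24, adjusted p = 1.19e-05. With LPS the gap was 0.45, adjusted p = 0.0348, a call lost in 7 of 23 alternatives, among them the removal of GM-DC LPS replicate 1 or 2 or GM-MF LPS replicate 3, with adjusted p up to 0.189. Of the GBP genes measured on their own, Gbp8 alone was higher in GM-DC. The probe set shared by Gbp4, Gbp6, Gbp8, Gbp9, Gbp10 and Gbp11 was lower in GM-DC, by -2.99 before LPS and -3.12 with it.

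Of 13 listed further IRG symbols 6 were measured. With LPS 3 of 6 were called higher in GM-DC, median 0.61, where 5.23% of all genes were. In GM-MF 4 of 6 were called higher, median 0.83, where 6.54% of all genes were. Gm12250, which encodes Irgb10, a GTPase that attacks bacterial membranes, measured 8.24, 8.51 and 7.89 in GM-DC LPS and 4.12, 4.30 and 4.29 in unstimulated GM-DC. In the macrophages it measured 11.00, 10.87 and 11.02 in GM-MF LPS and 9.91, 9.89 and 10.08 in unstimulated GM-MF. It was low only in unstimulated GM-DC, where all 3 values were under their array medians and so not shown to lie above background. Its response was 3.98 in GM-DC, 1.00 in GM-MF and larger in GM-DC by 2.98, adjusted p = 3.14e-07. Gm12185 rose by 1.64 in GM-DC and 1.86 in GM-MF, and Gm4951 by 0.88 in GM-DC and 1.29 in GM-MF. Gm4951 was under its array median in all GM-DC arrays and 4.56 lower there with LPS than in GM-MF. Irgc1 and Irgq were not called after LPS in either cell type.

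Shared probe sets of further IRG genes were fitted with all probe sets. The 2 probe sets of Tgtp1 and Tgtp2, effector GTPases of the IRG family, had GM-DC responses of 4.75 and 4.94 and GM-MF responses of 1.45 and 1.27, larger in GM-DC by 3.30 and 3.68 (adjusted p = 2.94e-05 and 1.53e-05). The probe set of Ifi47 and the olfactory receptor gene Olfr56 had a GM-DC response of 4.04 and a GM-MF response of 0.65, larger in GM-DC by 3.40, adjusted p = 0.0004. Among the GTPases beyond these families Mx2, of the antiviral Mx proteins, responded by 3.02 in GM-DC and 1.81 in GM-MF, larger in GM-DC by 1.22, adjusted p = 0.000585. Mx1 responded by 0.66 in GM-DC and 1.30 in GM-MF, larger in GM-MF, with -0.64, adjusted p = 0.00483. Larger responses in GM-DC were thus found for Irgm1, Gbp7, Gm12250, Mx2 and the shared probe sets of Irgm2 with Igtp, Tgtp1 with Tgtp2 and Ifi47 with Olfr56, and larger ones in GM-MF for Iigp1, Gbp9, Gbp11, Gbp2b, Gbp8, Gm4841 and Mx1. The call of Gbp8 was lost in 11 of 23 alternatives, with adjusted p up to 0.112, and the removal of any array but GM-MF LPS replicate 3 or GM-MF unstimulated replicate 1 ended it. That of Gbp2b was lost in 8 of 22, with adjusted p up to 0.0648, among them the removal of GM-DC LPS replicate 3, GM-DC unstimulated replicate 1 or 2, GM-MF LPS replicate 2 or 3, or GM-MF unstimulated replicate 1 or 2. That of Gm4841 was lost in 8 of 22, with adjusted p up to 0.073, among them the removal of GM-DC LPS replicate 1 or 3, GM-DC unstimulated replicate 1 or 2, or GM-MF unstimulated replicate 1 or 2.

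Of the ligands upstream, Ifnb1 differed between the cell types. Ifnb1, the gene of interferon beta, measured 3.93, 3.99 and 3.91 in GM-DC LPS and 2.91, 2.90 and 3.23 in unstimulated GM-DC, against 7.42, 7.12 and 7.83 in GM-MF LPS and 4.25, 4.13 and 5.14 in unstimulated GM-MF. The GM-DC values were all under the array medians, as were 2 of the 3 unstimulated GM-MF values. The response was 0.93 in GM-DC (adjusted p = 0.0149) and 2.95 in GM-MF (adjusted p = 4.26e-07), larger in GM-MF, with -2.02, adjusted p = 0.000869. The GM-DC call was lost in 4 of 23 alternatives, 3 of them the removal of GM-DC LPS replicate 2 or of unstimulated GM-DC replicate 1 or 2, with adjusted p up to 0.0607. Ifng, the gene of interferon gamma, lay between 3.26 and 3.81 in all 12 arrays, under the array medians. Among the receptor chains Ifnar1 was lower in GM-DC by -1.07 before LPS and -1.76 with it, and Ifnar2 by -1.35 and -1.52. Ifngr1, a chain of the interferon gamma receptor, fell with LPS by 0.54 in GM-DC and by 0.63 in GM-MF.

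Of 9 transducers and transcription factors measured 4 were called higher and 1 lower with LPS in GM-DC, median 0.28. Of all genes 5.23% were called higher there and 4.49% lower. In GM-MF 6 were called higher, median 0.37, where 6.54% of all genes were. Irf7, which amplifies type I interferon production, measured 7.58, 8.37 and 7.94 in GM-DC LPS and 4.42, 4.89 and 4.65 in unstimulated GM-DC, against 10.92, 10.94 and 10.82 in GM-MF LPS and 10.05, 10.08 and 10.17 in unstimulated GM-MF. Like Irgm1 it was low in unstimulated GM-DC, and its response was larger in GM-DC by 2.51, adjusted p = 8.1e-06. Stat2, a transducer of type I interferon signals, responded by 1.90 in GM-DC and 0.01 in GM-MF, larger in GM-DC by 1.89, adjusted p = 3.63e-06. Irf1, which takes part in interferon gamma responses, responded by 0.83 in GM-DC and 1.08 in GM-MF, each called. Irf8, a factor of myeloid development, and the kinase gene Jak2 were higher in unstimulated GM-DC, by 2.75 and 1.21, and rose in GM-MF, by 1.62 and 1.19. Their responses were larger in GM-MF, with -1.61 (adjusted p = 2.33e-05) and -1.41 (adjusted p = 7.2e-05).

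Of 7 inhibitors of interferon signalling measured 3 were called higher in GM-DC with LPS, median 0.32, where 5.23% of all genes were. In GM-MF 5 were called higher, median 0.81, where 6.54% of all genes were. Between the cell types the response was called larger in GM-DC for 1 of 7 and larger in GM-MF for 4 of 7, median -0.90. Of all genes 4.53% were called larger in GM-DC and 3.06% in GM-MF. Usp18, which blunts type I interferon receptor signalling, responded by 2.75 in GM-DC and 0.72 in GM-MF, larger in GM-DC by 2.04, adjusted p = 4.48e-06. Socs1, Socs3 and Cish, of the suppressor of cytokine signalling family, had responses larger in GM-MF, with -1.56, -1.88 and -1.71 (adjusted p = 1.86e-05, 6.97e-05 and 9.8e-05). Socs1 averaged 5.92 ± 0.17 in GM-DC LPS and 5.60 ± 0.07 in unstimulated GM-DC, against 8.20 ± 0.17 in GM-MF LPS and 6.32 ± 0.03 in unstimulated GM-MF (SD, n = 3 each). Its GM-MF LPS arrays stood apart from all other arrays.

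**Figure D5:**
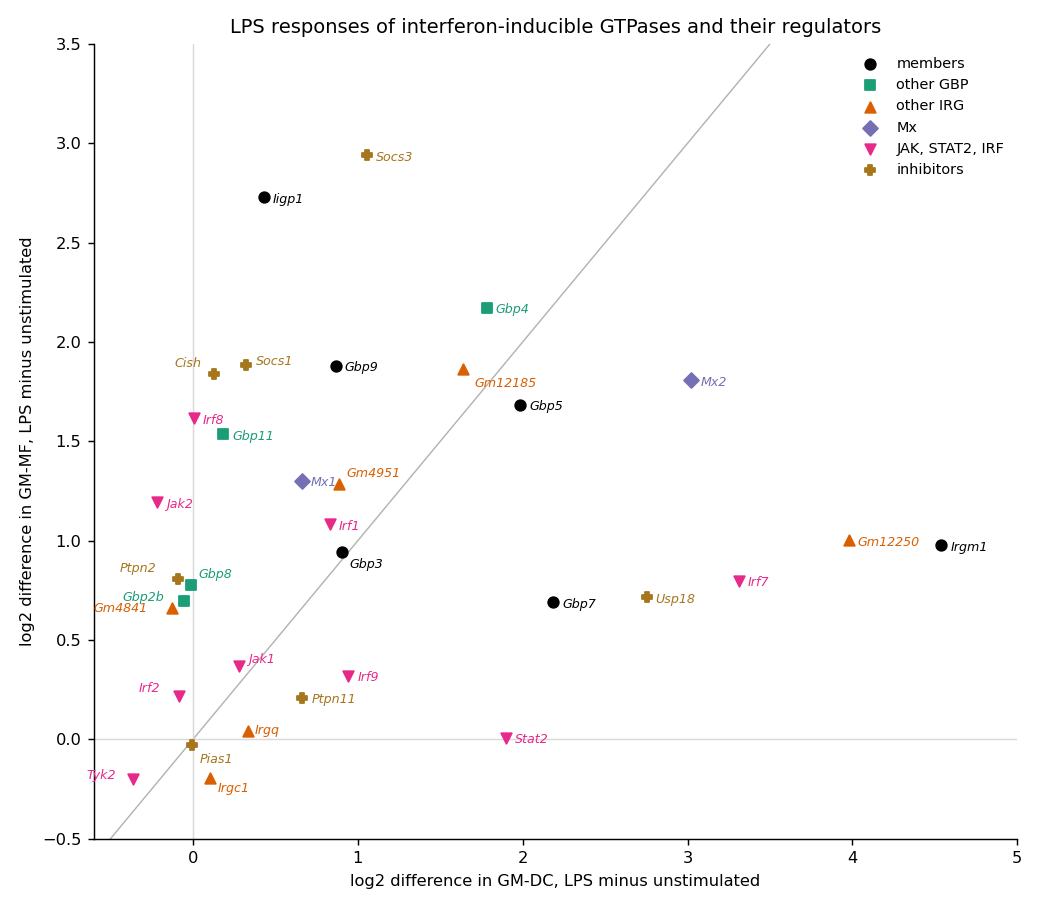
LPS response in GM-DC (horizontal) and in GM-MF (vertical), each as a log2 difference of LPS minus unstimulated, for the 6 measured genes, other family genes, Mx genes, transducers and transcription factors, and inhibitors. The diagonal marks equal responses. Irgm1 at 4.54 and 0.98, Gm12250 at 3.98 and 1.00 and Irf7 at 3.31 and 0.80 lie to the right of it, and Iigp1 at 0.43 and 2.73 and Socs3 at 1.06 and 2.94 lie above it.

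Genes through which the GTPases are known to act were also described. Of 8 inflammasome genes linked to GBPs 5 were called higher with LPS in GM-DC, median 0.78, where 5.23% of all genes were, and 5 in GM-MF, median 0.61, where 6.54% were. With LPS 8 of 8 were called lower in GM-DC than in GM-MF, where 15.4% of all genes were. Casp4, which encodes mouse caspase-11, the intracellular LPS sensor, responded by 1.97 in GM-DC and 0.85 in GM-MF, larger in GM-DC by 1.12, adjusted p = 0.00191. Il18, which encodes a cytokine that caspase-1 cleaves, rose by 1.89 in GM-MF and was under the array medians in GM-DC, with means of 3.59 with LPS and 4.10 without, and in unstimulated GM-MF, with a mean of 4.02, so that the rise starts from a signal not shown to lie above background. Its response was larger in GM-MF, with -2.40, adjusted p = 0.000151. Of 12 autophagy conjugation genes, whose products help to place GBPs and IRGs on vacuoles, 1 was called lower with LPS in GM-DC, where 4.49% of all genes were, and 4 in GM-MF, where 10.8% were, and the others were not called. In GM-MF these were Atg7 (-0.78), Atg5 (-0.71), Gabarapl1 (-0.69) and Map1lc3b (-0.35). In GM-DC it was Gabarapl1 (-0.37, adjusted p = 0.0368), a call lost in 9 of 24 alternatives, among them the removal of any GM-DC LPS array, of GM-DC unstimulated replicate 1 or 2 or of GM-MF unstimulated replicate 3, with adjusted p up to 0.145. Of 5 prenylation and GTPase-handling genes, some of which encode the enzymes that lipidate GBPs, 2 were called lower with LPS in GM-MF, where 10.8% of all genes were. These 2 were Fntb (-0.47) and Fnta (-0.35). Both calls were lost without GM-MF LPS replicate 1 or 3 or GM-MF unstimulated replicate 1, that of Fntb also without GM-MF unstimulated replicate 2 and that of Fnta also without replicate 3, with adjusted p up to 0.0708 for Fntb and 0.173 for Fnta.

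The 6 genes differed among themselves over the 12 arrays. Pearson's r, given as a description over arrays that share groups, was highest for Gbp3 with Gbp7, at 0.983, and lowest for Irgm1 with Iigp1, at 0.766. Genes of like pattern were sought among 3739 genes whose group means span at least 1 log2 unit. The genes followed here and symbols of clone or gene-model form, such as Gm12250, were left out of that pool. Most like the mean of the 6 genes were Naa25 (r = 0.996), Cmpk2 (0.995), Sgcb (0.994), Ccl4 (0.994) and Ikzf1 (0.994). Closest to each gene were Sgk3 to Gbp3 (0.999), Car13 to Gbp5 (0.996), Mlkl to Gbp7 (0.994), Batf to Gbp9 (0.990), Ifi209 to Irgm1 (0.995) and Tbc1d9 to Iigp1 (0.998). Cmpk2, an interferon-induced kinase of nucleotides, averaged 7.24 in GM-DC LPS, 4.47 in unstimulated GM-DC, 11.50 in GM-MF LPS and 9.96 in unstimulated GM-MF.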

How the data were processed

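RNA of 12 samples was hybridised to Affymetrix Mouse Gene 1.0 arrays. The authors deposited 1 value per probe set and array, and the submitters' processing notes name RMA and R 3.0.2 for it. The settings and the log base of RMA are not given in the sources used here, and the deposited values, from 1.18 to 13.7, were taken as log2. No detection call was used, so folds against signals below the array median compare signals, not amounts of transcript.

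Of 35556 probe sets 21789 had 1 symbol, 1621 several and 12146 none, which gave 19938 genes, 999 of them with several probe sets. Differences were tested with limma 3.58.1 in R 4.3.3 (lmFit on 4 group means over 12 arrays, eBayes, 8 residual degrees of freedom, two-sided), with Benjamini-Hochberg adjustment over all genes and calls at 0.05. The step was tested on simulated data. The 9 genes, the gene lists and the rules were chosen with earlier results of these data known. The text names the 9 genes, up to 4 called genes with the largest difference per list and comparison, and the genes most alike in pattern to the 6 measured genes, since 3 of the 9 planned had no probe set of their own. The shared probe sets, the comparison of GM-DC LPS with unstimulated GM-MF and the values of Socs1 and Cmpk2 by group were added after the data were seen. The alternatives were 3 normalisations, the mean of a gene's probe sets, 2 filters on low values, 2 variance models, only the groups compared, a replicate block, all probe sets tested, and each array left out. Promoters came from RefSeq.

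The labels number the replicates 1 to 3 in each group. Deviations from group means correlated at 0.119 to 0.363 between GM-DC arrays of the same number and at 0.104 to 0.257 between such GM-MF arrays, against -0.25 to 0.164 and -0.216 to 0.0254 for different numbers. Every same-numbered pair was over 0.1, and in GM-MF each stood above all pairs of different numbers. In GM-DC, LPS replicate 1 with unstimulated replicate 2, at 0.164, and LPS replicate 2 with unstimulated replicate 1, at 0.12, were over 0.1 too. The correlations therefore do not tell GM-DC replicates 1 and 2 apart, and a pairing of the samples is not settled. The main fit leaves pairing out, and the replicate block takes the numbers as pairs. The number of arrays limits the precision.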

Additional observations from a re-analysis of the deposited data

Results flagged for a closer look

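The LPS responses of 9 GBP and IRG genes differed between the cell types by the interaction test in limma. The test takes GM-DC response minus GM-MF response on the log2 scale, with p-values adjusted over all genes. Of all genes 4.53% had a response called larger in GM-DC and 3.06% in GM-MF. The responses of the 9 genes are given here. They were larger in GM-DC for Irgm1 at 3.56 (adjusted p = 7.89e-06), Gm12250 at 2.98 (adjusted p = 3.14e-07) and Gbp7 at 1.50 (adjusted p = 0.0264). They were larger in GM-MF for Iigp1 at -2.30 (adjusted p = 6.66e-06), Gbp11 at -1.35 (adjusted p = 0.0038), Gbp9 at -1.01 (adjusted p = 0.0275), Gbp8 at -0.78 (adjusted p = 0.0435), Gm4841 at -0.78 (adjusted p = 0.0259) and Gbp2b at -0.75 (adjusted p = 0.0238). For Iigp1, Gbp11, Gbp2b and Gm4841 the GM-DC arrays were all under the array medians, as were the unstimulated GM-MF arrays of Gbp11 and Gm4841 and the unstimulated GM-DC arrays of Gbp7 and Gm12250. Groups of 3 arrays are too small for a test of single arrays that stand apart.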

How the results depend on the processing

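Over all settings, 810 results of the measured genes kept their direction and their side of the threshold, 17 lost a call, 5 gained one and 8 changed sign. The sign changes were all of differences that had not passed. With quantile normalisation the Gbp3 difference between LPS responses was 0.082, and leaving out 1 array gave -0.14 to 0.018. The Gbp5 difference of GM-DC LPS minus unstimulated GM-MF was -0.011 after cyclic loess and -0.092 to 0.11 with 1 array left out, and that of Gbp9 was -0.19 to 0.082. In the comparison of LPS responses 2 genes were called with all probe sets tested, which adjusts over more features, and 2 to 4 with 1 array left out, with 2 without GM-DC unstimulated replicate 1, GM-MF LPS replicate 2 or GM-MF unstimulated replicate 3. Leaving out 1 array called 5 genes in GM-DC, 5 to 6 in GM-MF, 6 between unstimulated cells, 6 between LPS-treated cells and 4 in the added comparison. The replicate block called 6 genes in GM-MF, where Gbp7 passed, and changed no other call of the 6 genes. With it 2049 genes of all were called in GM-DC, 3648 in GM-MF, 7011 between unstimulated cells, 7343 between LPS-treated cells and 1652 in the comparison of responses. Between cell types same-number correlations were -0.168 to 0.0117 without LPS and -0.0047 to 0.156 with it. These ranges overlapped those for different numbers, so they show no pairing. Of 161 calls of genes from the lists, 139 were kept under every alternative run and 22 were lost under at least 1. The cause of a changed call was not tested. Testing all probe sets refits the model, so it changes more than the number of features adjusted over. Signals under the array medians limit the GM-DC values of Iigp1 and, without LPS, of Gbp7.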
